A study of Mus musculus with 24 samples.

Results

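Genes displaced at 12, 24, 48 and 72 h after an acetaminophen (APAP) overdose in control mouse livers were described from 8 of the 24 RNA-seq libraries in the series, the 4 control libraries collected at those times and the 4 control libraries collected at 0 h. The study set livers with lifelong deletion of E2f7 and E2f8 (LKO) beside control littermates after 300 mg/kg APAP. The control mice, labelled WT, were males 2.5 months old on a mixed background, predominantly FVB, and carried E2f7 and E2f8 loxP/loxP and the R26R mTmG/mTmG reporter without the Alb-Cre transgene, so their E2f7 and E2f8 genes were intact. LKO mice, labelled KO, carried the same floxed alleles and reporter with Alb-Cre Tg/0, a recombinase gene under the albumin promoter that acts in hepatocytes and bile duct cells of the developing liver. All mice were fasted overnight, and those at 0 h received no APAP. Each library at 0 h came from a single mouse, whereas each library at 12 to 72 h was made from RNA pooled from 3 mice, with 1 pool per time point. NULL mice, used only as an alternative baseline, belonged to another cohort with floxed alleles that had received an AAV8-TBG-Null virus.

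The 4 pools were treated as 1 arm, so the spread within it held both the change with time and the spread between pools, and a pool averages its 3 mice. No mice given saline and collected at 12 to 72 h were analysed here, and feeding after the injection and the clock time of collection were not given in the sources used here. APAP, the injection, the end of the fast and the time of day therefore cannot be told apart in any difference from 0 h, and pools hold only mice alive at collection. In whole liver, fewer cells of a type and less RNA per cell cannot be told apart either.

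APAP is harmless at a low dose because it is conjugated to glucuronide and sulfate. After an overdose, cytochrome P450 enzymes of the hepatocytes around the central vein, above all Cyp2e1 and Cyp1a2, turn more of it into a reactive quinone imine that depletes glutathione and binds proteins, and these pericentral hepatocytes die by necrosis. Surviving hepatocytes induce stress programmes, monocytes and neutrophils enter the dead zone and clear it, and hepatocytes and non-parenchymal cells divide to restore the lobule, after which zonal gene expression returns.

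The 8 libraries held 12665686 to 17807057 reads on genes. Unmapped reads made up 2.63% to 12% of 7 libraries and 20.6% of the library of mouse 3 at 0 h. Reads on no annotated feature made up 13.6% in the 12 h pool and 7.29% to 10.5% in the other 7. Hepatocyte markers were abundant in all 8 libraries. Their 6 genes summed to between 66214 and 106753 CPM (a gene's reads relative to those of its library, scaled by TMM) in the mice and between 85844 and 126109 CPM in the pools, while their median log2 fold change was −0.45. Alb was not called (log2 fold change 0.42 ± 0.29, SE), and Fah (adjusted p = 0.0274) and Tat (adjusted p = 0.0211) were called lower. Both calls were lost with some single libraries left out, Fah without mouse 1, 2 or 4 or the 24 or 48 h pool (highest adjusted p = 0.0746) and Tat without mouse 2 or the 24 or 48 h pool (highest adjusted p = 0.061). Markers of T, NK or B cells were at or near 0 in all 8 libraries, with 1 of 9 reaching the filter.

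Of 12481 genes tested, 2001 (16%) were called by edgeR's quasi-likelihood test of the 4 pools against the 4 mice (Benjamini-Hochberg adjusted p under 0.05, fold change 1.5 or more). Of these, 1105 were higher in the pools (8.85% of genes tested) and 896 lower (7.18%). A called gene counted as held when each of the 4 pools was also at least 1.5-fold from the mean of the 4 mice, and no pool fell within the range of the mice. Over all genes tested, pools and mice did not overlap in 2771 (22.2%), and the rule sets this in advance for every held gene. By this rule 648 genes were held up (5.19% of genes tested) and 464 were held down (3.72%), together 8.91%, which is 58.6% of the higher and 51.8% of the lower calls. Just inside the 1.5-fold limit (0.585 on the log2 scale) lay Itpripl2 with a smallest pool change of 0.588 among held-up genes, and just outside it Itgb2 with 0.584. The lower side had Gpr108 just inside at 0.585435 and Mup3 just outside at 0.584764. Library size alone as the scaling raised the share of higher calls from 55.2% to 71.3% of all calls, with 1518 higher and 610 lower, and moved the median log2 fold change of all genes from 0.06 to 0.19. Calls fell to 676, 609, 1276 and 1035 without mouse 1, 2, 3 or 4, and to 1101 and 978 without the 24 h or 48 h pool. Without mouse 1 the held genes numbered 361 up and 279 down and without mouse 2, 330 and 265, without the 24 h pool 598 and 342, and without the 48 h pool 492 and 350. They rose to 1110 and 823 without the 12 h pool and to 1163 and 889 without the 72 h pool.

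Held-up genes had a lower median level before the overdose than held-down genes. The rule and the filter on low counts partly set this, since a gene scarce in the mice could enter the test only through its pools, so these levels are a description. Under 1 CPM at 0 h were 177 held-up genes (27.3%), 0 held-down genes and 6.69% of all genes tested. The median level at 0 h was 2.61 CPM for held-up genes, 56.9 CPM for held-down genes and 17.1 CPM for all genes tested. Among held-down genes 168 (36.2%) averaged 100 CPM or more at 0 h, against 13 (2.01%) of held-up genes and 12.3% of all genes. Held-up genes took 0.754% to 0.837% of the reads in the mice and 3.86%, 4.3%, 5.1% and 2.69% in the pools at 12, 24, 48 and 72 h. Held-down genes took 8.83% to 10.1% in the mice and 3.85%, 3.29%, 3.65% and 4.52% in the pools. The median log2 fold change was 1.84 over held-up genes and −1.25 over held-down genes, with 0.06 over all genes. Displacement of at least 2-fold in every pool was seen in 337 held-up and 141 held-down genes, and of at least 4-fold in 79 and 9.

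**Figure D1:**
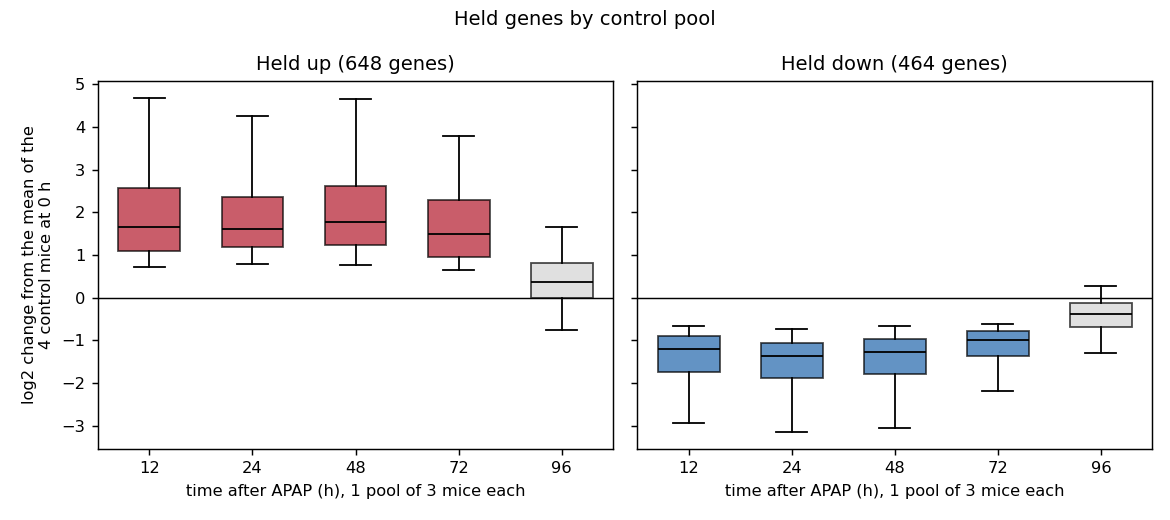
Log2 change from the mean of the 4 control mice at 0 h for the 648 held-up and 464 held-down genes in each control pool. Boxes span the quartiles with the median as a line, whiskers run from the 5th to the 95th percentile, and the grey box is the 96 h pool, which the choice of genes did not use and where the medians were 0.37 and −0.39.

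Most of the 12 genes held furthest up, ranked by the change of the pool nearest to 0 h, were scarce in untreated livers. By the rule above, none of their pools overlaps the mice. Sprr1a (chr3:92483952-92485895, minus strand, GRCm38), which encodes a small proline-rich envelope protein of squamous epithelia, had no count in any of the 4 mice and stood at 37.4, 29.7, 126 and 12.4 CPM in the pools at 12, 24, 48 and 72 h. Its mean in the pools was at least 205-fold higher than 3 counts in the mouse library where 3 counts are worth most (0.251 CPM), and its adjusted p was 0.0045. The only other held gene without a count in the mice was Gml2, named after its values were seen, which stood at 0.86 CPM or more in every pool. Lcn2 (lipocalin 2, an iron-siderophore binding protein of the acute phase) was at 1.67, 8.62, 23.2 and 6.33 CPM in the mice and 232, 243, 484 and 471 CPM in the pools. The mice spread widely, yet all 4 pools stood far above the highest of them. On the log2 scale the fold change of Lcn2 was 5.18 ± 0.71 (SE, adjusted p = 0.00329). Apoa4 (chr9:46240696-46243459, plus strand), an apolipoprotein of intestine and liver, was at 114, 75, 105 and 123 CPM in the mice. In the pools Apoa4 reached 2706, 7946, 15600.0 and 6148 CPM, which made it the most abundant held-up gene (log2 fold change 6.28 ± 0.56, adjusted p = 0.000843).

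The rest of this group includes genes of serine synthesis, glutathione conjugation and the plasminogen system. Psat1, an aminotransferase of serine synthesis, was at 0.575, 0.556, 0.919 and 0.358 CPM in the mice and 28.3, 26.2, 22.6 and 14.9 CPM in the pools. All 4 pools were far above the mice, with the lowest at 72 h (log2 fold change 5.27 ± 0.35, adjusted p = 0.00031). Ly6d, a GPI-anchored surface protein, was at 0.69, 0.348, 0.0835 and 0.956 CPM in the mice and 11.9, 67.4, 84.4 and 129 CPM in the pools, lowest at 12 h and highest at 72 h. Gsta1, a glutathione S-transferase, was at 0.46, 0.487, 0.167 and 1.97 CPM in the mice and 81.8, 133, 52.9 and 9.8 CPM in the pools (log2 fold change 6.42 ± 0.90, adjusted p = 0.00346). Reads that match more than 1 locus were not counted, so the levels of genes with near-identical copies, such as Gsta1 and Gsta2, the Cyp2c and Ugt2b families, tubulins, Actb and Npm1, are uncertain. Sult1e1, the estrogen sulfotransferase, rose from 0, 0.0695, 0.251 and 0.179 CPM to 22, 13.2, 15.7 and 2.91 CPM (adjusted p = 0.00266). The urokinase receptor gene Plaur rose from 0.345, 0.765, 0.585 and 0.358 CPM to 19.6, 17.6, 18 and 8.14 CPM (log2 fold change 4.95 ± 0.40, adjusted p = 0.000816). Tissue plasminogen activator, encoded by Plat, rose from 0.403, 0.417, 0.836 and 0.657 CPM to 16.9, 8.84, 16.8 and 9.33 CPM. Their 72 h pools were mostly the lowest. Ier3, Ccl7 and Ccl2 complete the 12 and are described with their groups, and the calls of all 12 held with any single library left out.

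**Figure D2:**
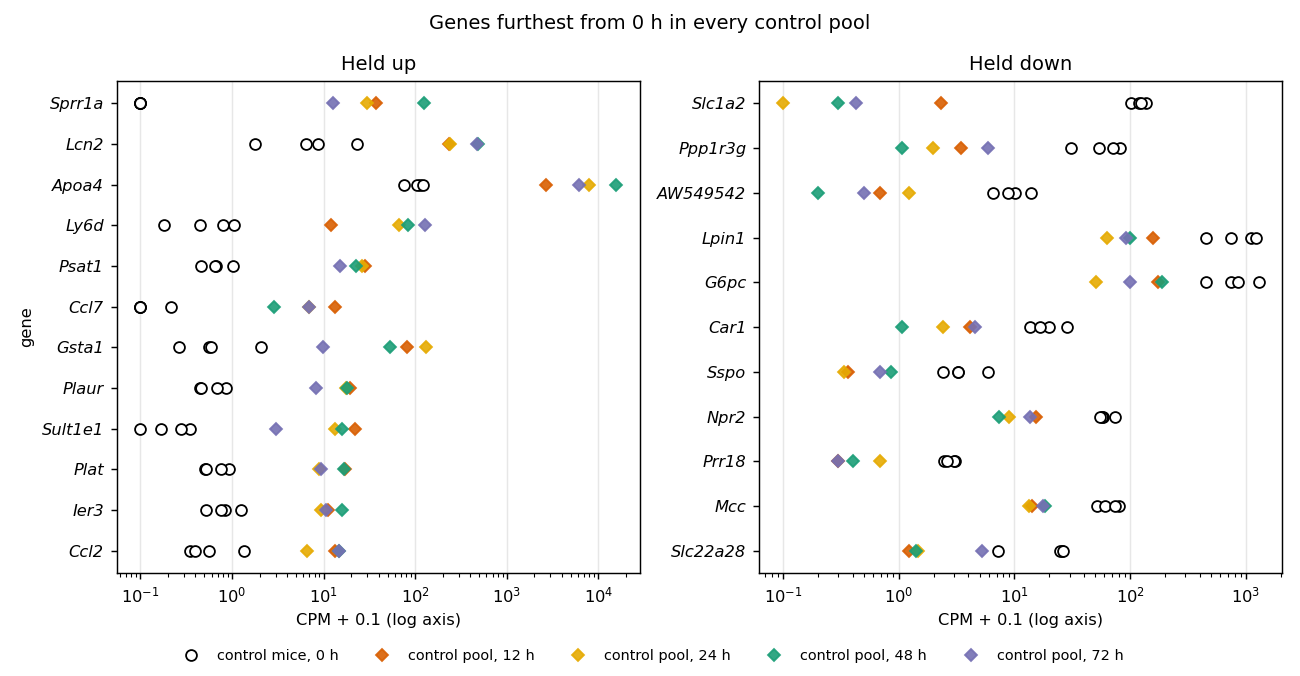
CPM plus 0.1 on a log axis for 12 held-up and 11 held-down genes whose smallest pool change was among the largest, with open circles for the 4 control mice at 0 h and diamonds for the control pools. By the rule for held genes no diamond overlaps the circles of its gene, and Slc1a2 at 24 h and Sprr1a in all 4 mice sit at 0 CPM.

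Promoters of the held genes were searched for 7 motifs in 300 bases from 250 before to 50 after each transcription start in RefSeq on GRCm38.p6. The motif TGANTCA, which AP-1 factors such as Jun and Fos dimers bind, occurred in 63 of 598 promoters of held-up genes (10.5%), 6.76% of promoters of held-down genes and 5.38% of the 12210 promoters of all tested genes. It reads the same on both strands, and 15 of the 63 promoters also hold TGACNNNGC, the core of the antioxidant response element, whose letters can overlap it. TGACNNNGC itself, sought on both strands, was in 14.4% of held-up, 15.6% of held-down and 14.4% of all promoters. Searched the same way, CCAAT was in 35.1% of held-up and 37.3% of all promoters, the E-box CANNTG in 63.9% and 64.1%, the motif TTGCNNAA of C/EBP factors in 8.7% and 8.76%, the motif GGGNNNTCC of NF-kB in 23.2% and 22.7%, and TATAAA in 9.7% and 7.62%. These shares are descriptions without a test, and a match is not a bound site. Among the 8 of the 12 genes held furthest up that matched a promoter, Sprr1a and Plaur had TGANTCA before the start, and Mmp12 is shown with them as a macrophage gene with the same motif. The 250 bases before each start follow 5′ to 3′, with the motif in capitals, from chr3:92485882-92486131 (minus strand), chr7:24462233-24462482 (plus strand) and chr9:7347124-7347373 (plus strand).
Sprr1a: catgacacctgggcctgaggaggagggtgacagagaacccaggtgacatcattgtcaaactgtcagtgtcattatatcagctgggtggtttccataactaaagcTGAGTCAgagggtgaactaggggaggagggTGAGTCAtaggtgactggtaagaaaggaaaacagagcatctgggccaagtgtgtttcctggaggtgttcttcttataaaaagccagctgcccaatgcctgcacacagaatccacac
Plaur: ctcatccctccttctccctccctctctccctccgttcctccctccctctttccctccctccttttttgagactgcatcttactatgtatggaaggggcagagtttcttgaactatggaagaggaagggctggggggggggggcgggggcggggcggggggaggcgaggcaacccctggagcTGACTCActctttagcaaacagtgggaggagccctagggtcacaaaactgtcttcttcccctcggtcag
Mmp12: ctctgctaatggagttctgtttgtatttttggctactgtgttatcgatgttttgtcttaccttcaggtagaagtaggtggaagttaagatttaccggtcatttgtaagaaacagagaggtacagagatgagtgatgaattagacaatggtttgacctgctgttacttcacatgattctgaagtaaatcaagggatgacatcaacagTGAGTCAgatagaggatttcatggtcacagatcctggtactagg
The Sprr1a promoter held 2 matches, which began 146 and 116 bases before the start, and those of Plaur and Mmp12 began 69 and 44 bases before it.

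The genes held furthest down included a glutamate carrier of the pericentral hepatocyte and genes that a fast is known to raise. Slc1a2 (chr2:102658659-102790784, plus strand), the glutamate transporter GLT-1 that pericentral hepatocytes use to take up glutamate for glutamine synthesis, was at 102, 136, 119.6 and 123 CPM in the mice. In the pools it was at 2.24, 0, 0.202 and 0.331 CPM (log2 fold change −7.48 ± 0.83, adjusted p = 0.00185). It had no count at 24 h, where 3 counts equal 0.191 CPM before TMM scaling, and no held-down gene had a larger fall. Lpin1, a phosphatidate phosphatase and nuclear coactivator induced by fasting, fell from 448, 1117, 1215 and 747 CPM to 157, 62.7, 99.6 and 91.1 CPM (log2 fold change −3.10 ± 0.38, adjusted p = 0.00266). G6pc, the catalytic subunit of glucose-6-phosphatase that releases glucose from the liver, fell from 745, 847, 1289.5 and 453 CPM to 175, 50.6, 187 and 99.9 CPM (log2 fold change −2.70 ± 0.45, adjusted p = 0.00722). By the rule for held genes, every pool of G6pc and of Lpin1 lay below the lowest mouse. Ppp1r3g, a glycogen-targeting subunit of protein phosphatase 1, was at 81.2, 53.3, 30.8 and 70.4 CPM in the mice and 3.36, 1.89, 0.958 and 5.76 CPM in the pools.

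The other named members of this group have less related roles. Npr2, the receptor for C-type natriuretic peptide, fell from 73.5, 58.3, 57.4 and 54.8 CPM to 15.2, 8.96, 7.31 and 13.6 CPM (log2 fold change −2.44 ± 0.26, adjusted p = 0.00165). Mcc fell from 51.4, 79.8, 60.2 and 74.1 CPM to 14, 13.3, 18.4 and 17.6 CPM (adjusted p = 0.00137). The pools of both lay well below the mice, those of Mcc close together and those of Npr2 spread from 7.31 to 15.2 CPM. Car1, a carbonic anhydrase, Slc22a28, an organic anion transporter, and the low-level genes Sspo and Prr18 fell with adjusted p of 0.00675, 0.00934, 0.00722 and 0.00383, and AW549542 was also among the genes held furthest down. Not called with the NULL mice as the baseline were Car1 (log2 fold change −1.51, adjusted p = 0.0563) and Slc22a28 (log2 fold change −1.29, adjusted p = 0.131). Among genes with printed values, a transcript on the opposite strand is annotated across exons of Slc1a2, Npr2, Mcc, Apoa4, Krt8, Cdkn1a, Anxa2, Mlxipl, Abcb11, Alas2, Ces3a, Cyp2f2, Dnaja1, Dusp5, G6pdx, Ilf2, Jade1, Mmp12, Nr1d1, Rhbdd3, Stab1, Tagln, Tef, Tpm4, Ugt1a6a and Usp2, and of Lox and Thbs1, which are given by name. Because counting disregarded strand, reads assigned to both genes of such a pair are ambiguous and were dropped, which can lower their levels. The annotation behind the counts is not known, so how far these levels are affected was not tested.

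Stress-response genes made up several of the held-up groups. Counts in this and later lists stand beside the shares of all genes tested, 8.85% called higher, 7.18% lower, 5.19% held up and 3.72% held down. Of 19 tested targets of p53, 10 were called higher, none lower and 5 were held up. Cdkn1a, the cyclin-dependent kinase inhibitor p21, was at 1.38, 12.2, 13.5 and 2.57 CPM in the mice and 371, 239, 203 and 48.4 CPM in the pools (log2 fold change 4.87 ± 0.84, adjusted p = 0.00798), highest at 12 h. Held up with it were Btg2, the polo-like kinase gene Plk2 (adjusted p = 0.0226), the BH3-only gene Pmaip1 (adjusted p = 0.0404) and the death receptor gene Tnfrsf10b (adjusted p = 0.0137). Of 21 antioxidant targets of NRF2, 9 were called higher, none lower and 6 were held up. Hmox1, heme oxygenase 1, was at 16.9, 18.5, 24 and 24.8 CPM in the mice and 719.5, 67.4, 89.3 and 131 CPM in the pools, with the 12 h pool far above the others (log2 fold change 3.58 ± 0.73, adjusted p = 0.0135). Slc7a11, the cystine carrier for glutathione synthesis, had 1 count in all 4 mice together and 3.16, 6.01, 4.84 and 0.993 CPM in the pools (adjusted p = 0.00266). G6pdx, the first enzyme of the pentose phosphate pathway, rose from 3.28, 4.03, 3.51 and 3.11 CPM to 15.2, 23.6, 8.88 and 13.4 CPM (log2 fold change 2.13 ± 0.31, adjusted p = 0.00416). The NRF2 list as a whole stood furthest from 0 h in the first pool. Its median change was 1.93, 1.10, 0.20 and 0.40 at 12, 24, 48 and 72 h on the log2 scale. The calls lost with 1 library left out were Plk2 without mouse 2, 3 or 4 or the 48 h pool (highest adjusted p = 0.0647), Pmaip1 without mouse 1, 2 or 4 or the 24, 48 or 72 h pool (highest adjusted p = 0.121), Tnfrsf10b without mouse 2 (adjusted p = 0.0551) and Hmox1 without mouse 2 (adjusted p = 0.0536). With the NULL mice as the baseline the call was lost for Pmaip1 (log2 fold change 1.88, adjusted p = 0.0542).

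Immediate-early genes included some of the largest early changes. Of 12 tested AP-1 and immediate-early genes, 4 were called higher and all 4 were held up, while the other 8 were not called. Egr1, a zinc-finger factor induced by growth signals, was at 24.8, 35.3, 31 and 52.7 CPM in the mice and 565, 94.7, 109 and 100.2 CPM in the pools (adjusted p = 0.0212). Atf3, a stress-induced bZIP factor, was at 7.99, 2.09, 3.17 and 2.63 CPM in the mice and 191, 14, 17.4 and 13.6 CPM in the pools (adjusted p = 0.0266). Their 12 h pools were several times above the other 3 pools. Klf6 went from 10.3, 8.97, 8.94 and 11.6 CPM to 272, 97.4, 88.9 and 28.3 CPM (log2 fold change 3.61 ± 0.58, adjusted p = 0.00608). Ier3 was even by comparison, at 0.748, 0.417, 1.17 and 0.657 CPM in the mice and 11.1, 9.26, 16 and 10.5 CPM in the pools (adjusted p = 0.000843). With 1 library left out, calls were lost for Egr1 without mouse 1, 2 or 3 (highest adjusted p = 0.0679) and Atf3 without mouse 1, 2, 3 or 4 (highest adjusted p = 0.083).

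Genes of the growth factor and plasminogen axis were held up in 8 of 16 tested, with 10 called higher and none lower. Besides Plaur and Plat, the group included Plau (urokinase), Hgf, Fgf21, Hbegf and Tnfrsf12a. Tnfrsf12a, the receptor for the cytokine TWEAK, rose from 7.42, 7.51, 8.69 and 7.05 CPM to 476, 319, 206 and 37.2 CPM (log2 fold change 5.08 ± 0.66, adjusted p = 0.00289). Hbegf, a ligand of the EGF receptor, rose from 0.805, 0.834, 0.585 and 0.956 CPM to 62.6, 9.26, 7.26 and 4.37 CPM (log2 fold change 4.69 ± 0.88, adjusted p = 0.0102). Both were highest at 12 h and fell from pool to pool, while the rule for held genes keeps them above every mouse. Fgf21, a hormone that hepatocytes secrete under metabolic stress, was at 2.65, 0.765, 0.836 and 2.75 CPM in the mice and 14.6, 7.84, 8.02 and 7.41 CPM in the pools (adjusted p = 0.0119), but with the NULL mice as the baseline it was not called and its sign turned (log2 fold change −0.48, adjusted p = 0.293). Of 20 cell death genes and cytokine receptors, 8 were called higher and 1 lower. The necroptosis effector Mlkl (adjusted p = 0.0127), the oncostatin M receptor Osmr (adjusted p = 0.0129) and the interleukin 1 antagonist Il1rn (adjusted p = 0.0182) were held up, and Lifr, the receptor for leukemia inhibitory factor, was held down from 380.2, 716, 596 and 190.2 CPM to 131, 107, 81.7 and 162 CPM (adjusted p = 0.0126). The calls lost with 1 library left out were Mlkl without mouse 2 (adjusted p = 0.0508) and Il1rn without mouse 1, 2 or 3 (highest adjusted p = 0.0565). That of Il1rn was also lost with the NULL baseline (log2 fold change 0.49, adjusted p = 0.409).

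No list had more called members than the cytoskeleton and membrane-repair list, 21 of 27 higher and none lower, with 13 held up. Krt8 and Krt18, the keratin pair of the hepatocyte intermediate filament, rose together. Krt8 went from 275, 257, 222 and 296 CPM in the mice to 4201, 2787, 1639 and 631 CPM in the pools (log2 fold change 3.14 ± 0.50, adjusted p = 0.00577), and Krt18 went from 188, 179, 162 and 190.0 CPM to 1842, 1634, 1108 and 531 CPM (log2 fold change 2.83 ± 0.36, adjusted p = 0.00266). Both fell at each later time point. Actb, cytoplasmic actin, had the same order, from 465, 467, 512 and 349 CPM to 3347, 1849, 1329.8 and 843 CPM (log2 fold change 2.04 ± 0.39, adjusted p = 0.0107). Anxa2, an annexin that patches torn membranes with S100a10, was at 10.8, 11.2, 9.27 and 11.3 CPM in the mice and 55.7, 287, 278 and 194 CPM in the pools (log2 fold change 4.25 ± 0.46, adjusted p = 0.00181), so it was lowest at 12 h. S100a10 rose with adjusted p = 0.00383, Anxa5 with 0.00173 and Tpm4 with 0.00163. Among 10 tubulin genes 5 were called higher and 3 were held up, led by Tubb6 at 14.6, 9.46, 8.69 and 11.9 CPM in the mice and 113, 98.6, 79.5 and 63.1 CPM in the pools (log2 fold change 2.98 ± 0.25, adjusted p = 0.000816). Each gene with an adjusted p here kept its call with any single library left out.

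Chemokine and macrophage genes were held up as well, and several macrophage genes were highest in the last pool. Of 12 tested chemokines 7 were called higher and all 7 were held up, namely Ccl2, Ccl6, Ccl7, Cxcl1, Cxcl2, Cxcl10 and Cxcl14. Ccl2, the main attractant of monocytes, rose from 0.46, 1.25, 0.251 and 0.299 CPM to 13.2, 6.48, 14.7 and 14.5 CPM (log2 fold change 4.41 ± 0.52, adjusted p = 0.00261). Ccl7, which shares the receptor of Ccl2, had 2 counts in the 4 mice together and 13.1, 6.78, 2.77 and 6.88 CPM in the pools (adjusted p = 0.00185). By the rule for held genes, neither overlapped the mice. Cxcl1, an attractant of neutrophils, was at 9.55, 48.9, 41.6 and 15.9 CPM in the mice and 191, 225, 106 and 106 CPM in the pools (adjusted p = 0.0145), and relative to their level its mice varied more than its pools. Of 8 tested markers of recruited monocytes and macrophages, 6 were called higher and all 6 were held up. Their summed level was 30.1 to 45.2 CPM in the mice and 66.4 to 800 CPM in the pools, and Trem2 and Ms4a7 of the list of 10 did not pass the filter. Cd68, a lysosomal protein of macrophages, was at 5.81, 4.87, 5.35 and 5.49 CPM in the mice and 33.6, 35, 25.3 and 50.2 CPM in the pools (log2 fold change 2.74 ± 0.24, adjusted p = 0.000816). Gpnmb, a lysosomal glycoprotein of lipid-laden macrophages, was at 1.32, 1.89, 6.15 and 106 CPM in the pools and 0.0575, 0, 0.0835 and 0.239 CPM in the mice. Lgals3, the galectin of phagocytes, rose from 1.21, 3.62, 2.17 and 2.63 CPM to 5.4, 32.7, 59.9 and 205 CPM (log2 fold change 4.98 ± 0.95, adjusted p = 0.0111). Gpnmb and Lgals3 were highest at 72 h, as was Chil3 at 1.45, 7.96, 39.4 and 50.4 CPM in the pools. Lost calls with 1 library left out were Gpnmb without mouse 1, 2 or 3 (highest adjusted p = 0.0614), Ccr2 without mouse 1, 2, 3 or 4 (highest adjusted p = 0.0716) and Ly6c2 without mouse 1, 2, 3 or 4 or the 24, 48 or 72 h pool (highest adjusted p = 0.136).

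Among markers of the resident Kupffer cell, 1 of 6 was called. Marco, a scavenger receptor, was held up from 1.73, 1.81, 1.17 and 2.57 CPM to 5.14, 12, 29 and 45.7 CPM (adjusted p = 0.00795), whereas Clec4f was at 68.2, 76.1, 105 and 58.2 CPM in the mice and 38.2, 30.5, 60.3 and 66.6 CPM in the pools (adjusted p = 0.136). Of 10 neutrophil markers 5 could be tested, 2 were called higher and S100a9 alone was held up (adjusted p = 0.0227). The neutrophil markers summed to 2.42 to 11.9 CPM in the mice and 13.6 to 31.6 CPM in the pools. Among 18 genes of the matrix and its proteases, 7 were called higher and 4 were held up, Lox, Mmp12, Mmp14 and Thbs1. Mmp12, the macrophage elastase, was at 0.173, 0, 0.752 and 0 CPM in the mice and 1.78, 2.83, 8.07 and 40.3 CPM in the pools (adjusted p = 0.0174). None of the 11 markers of stellate cells was held, although Acta2, Pdgfrb and Tagln were called higher. Acta2, the actin of activated stellate cells, was at 0.69, 0.834, 1.25 and 1.13 CPM in the mice and 0.791, 9.43, 33.4 and 68.8 CPM in the pools, so its 12 h pool was within the range of the mice. How far a change in cell numbers accounts for the levels of these genes was not tested. Left out singly, libraries ended the calls of S100a9 without mouse 1, 2 or 3 or the 48 h pool (highest adjusted p = 0.0723), Mmp12 without mouse 1 or 2 (highest adjusted p = 0.0594), Mmp14 without mouse 1, 2 or 3 (highest adjusted p = 0.0693), Acta2 without mouse 1 or 2 (highest adjusted p = 0.0602), Pdgfrb without mouse 1, 2, 3 or 4 or the 48 h pool (highest adjusted p = 0.115) and Tagln without mouse 1, 2, 3 or 4 or the 48 h pool (highest adjusted p = 0.0893). The NULL baseline ended the calls of Mmp14 (log2 fold change 0.21, adjusted p = 0.681) and Pdgfrb (log2 fold change 1.11, adjusted p = 0.101).

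Some genes for DNA replication were held up, whereas no tested gene for mitosis was. Of 21 tested replication genes 11 were called higher, 1 lower and 8 were held up. Their median change was 0.20, 1.09, 1.83 and 2.65 at 12, 24, 48 and 72 h on the log2 scale. Cdt1, which loads the replicative helicase at origins, was at 1.96, 2.02, 1.92 and 5.08 CPM in the mice and 32, 14.6, 18.2 and 19.7 CPM in the pools (log2 fold change 2.93 ± 0.40, adjusted p = 0.00315), highest at 12 h. Mcm6, a subunit of that helicase, rose from 3.39, 0.417, 1.25 and 4.54 CPM through 6.72, 18.6, 32.7 and 59.8 CPM (adjusted p = 0.0158), highest at 72 h. Mcm10 was the 1 replication gene called lower, from 162, 219, 254 and 96 CPM to 16.3, 17.9, 22 and 52.7 CPM (log2 fold change −2.75 ± 0.44, adjusted p = 0.00608). No other gene of GENCODE vM21 overlaps its exons, but the annotation behind the counts is not known, and whether all these reads come from Mcm10 was not tested. Of 24 G2 and mitosis genes only 13 passed the filter and were tested, of which 8 were called higher and none was held. The median change of the mitosis list was −0.44, 0.27, 3.25 and 4.13 at 12, 24, 48 and 72 h on the log2 scale. Top2a, the topoisomerase of dividing cells, was at 1.04, 0.487, 1.09 and 1.02 CPM in the mice and 0.264, 1.41, 25.6 and 50.6 CPM in the pools (adjusted p = 0.0405). Ribosome biogenesis genes were called higher in 5 of 18 and held in 3, with Npm1, nucleophosmin, at 109, 96.9, 101 and 110.4 CPM in the mice and 201, 190.1, 164 and 197 CPM in the pools (adjusted p = 0.00911). Calls lost with 1 library left out were Top2a without mouse 1, 2, 3 or 4 or the 48 or 72 h pool (highest adjusted p = 0.113), Chaf1b without mouse 1, 2 or 3 or the 48 h pool (highest adjusted p = 0.0813) and Nop58 without mouse 1, 2 or 4 (highest adjusted p = 0.0569). The NULL baseline ended the calls of Top2a (log2 fold change 5.10, adjusted p = 0.0619) and Npm1 (log2 fold change 0.28, adjusted p = 0.235).

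Glycolytic genes of proliferating and hypoxic cells were held up in 6 of 17, with 8 called higher and Pdk1 held down. Pkm, pyruvate kinase of the muscle type, was at 17.4, 17, 13.4 and 17.2 CPM in the mice and 33.6, 54.4, 127 and 151 CPM in the pools (log2 fold change 2.50 ± 0.43, adjusted p = 0.00806). Hilpda, an inhibitor of lipolysis induced by hypoxia, was at 1.04, 1.39, 2.92 and 1.37 CPM in the mice and 221, 264, 140.0 and 6.75 CPM in the pools (log2 fold change 6.57 ± 0.98, adjusted p = 0.0045), and its 72 h pool was closest to the mice. Ldha, which makes lactate, was at 756, 791, 758 and 648 CPM in the mice and 1179, 2816, 1935 and 1126 CPM in the pools (adjusted p = 0.0235). Lost calls with 1 library left out were Ldha without mouse 1, 2, 3 or 4 or the 24 or 48 h pool (highest adjusted p = 0.0676) and Hk2 without mouse 1 or 2 or the 48 h pool (highest adjusted p = 0.0646). That of Ldha was also lost with the NULL baseline (log2 fold change 1.01, adjusted p = 0.0643).

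On the lower side the pericentral hepatocyte list had the most held members, with 11 of 17 tested members called lower, all 11 held down and none called higher. The list holds the 2 main activators of APAP. Cyp2e1 was at 8872, 6936, 7375 and 9525 CPM in the mice and 4295, 1172, 443 and 2508 CPM in the pools, lowest at 48 h (log2 fold change −1.96 ± 0.56, adjusted p = 0.0417). Cyp1a2 was at 856, 893, 799 and 1055 CPM in the mice and 156, 56.2, 48.1 and 402 CPM in the pools (log2 fold change −2.44 ± 0.61, adjusted p = 0.0261). With 1 library left out, the call of Cyp2e1 was lost without mouse 1, 2, 3 or 4 or the 24 h pool (highest adjusted p = 0.103). That of Cyp1a2 was lost without mouse 1, 2, 3 or 4 or the 24 or 48 h pool (highest adjusted p = 0.0647). With the NULL mice as the baseline Cyp1a2 was not called (log2 fold change −1.21, adjusted p = 0.213). Oat, ornithine aminotransferase, fell from 621, 758, 635 and 578 CPM to 276, 88, 125 and 163 CPM (log2 fold change −1.99 ± 0.33, adjusted p = 0.00689). Rhbg, an ammonia channel, fell from 9.55, 17.2, 16.6 and 13.1 CPM to 2.37, 3.07, 1.21 and 3.9 CPM (adjusted p = 0.00476). The rule for held genes places the pools of both below every mouse. Lgr5, the R-spondin receptor that marks the cells next to the central vein, was scarce, at 3.62, 1.81, 3.17 and 2.51 CPM in the mice and 0.198, 0.648, 0.353 and 0.794 CPM in the pools (adjusted p = 0.0108). Glul, Slc22a3, Aldh3a2, Lhpp, Cyp2c37 and Slc1a2 complete the 11. The periportal P450 gene Cyp2f2 was also held down, from 1684, 2286, 2103 and 1551 CPM to 1047, 426, 418 and 919 CPM (adjusted p = 0.0213), and lost its call without mouse 1, 2 or 3 or the 24 or 48 h pool (highest adjusted p = 0.0653). Of 19 drug-metabolising P450 genes 5 were called lower and held.

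Some conjugation and bile acid genes were held down. Of 23 conjugation enzymes 8 were called lower, 7 were held down and 15 were not called. Ugt2b1, a glucuronosyltransferase, fell from 742, 1454, 1461 and 452 CPM to 252, 104, 84.5 and 332 CPM (log2 fold change −2.41 ± 0.52, adjusted p = 0.0166). Sult2a8, a sulfotransferase of bile acids, fell from 753, 847, 992 and 626 CPM to 217, 85.8, 99.2 and 293 CPM (log2 fold change −2.21 ± 0.39, adjusted p = 0.00886). Ugt1a6a, whose enzyme glucuronidates phenols such as APAP, fell with adjusted p = 0.0111, but it shares exons with the other Ugt1a genes, so its counts are uncertain. Of 17 genes of bile acid synthesis and transport, 8 were called lower, 4 were held down and 9 were not called. Abcb11, the bile salt export pump, was at 484, 557, 505 and 442 CPM in the mice and 85.9, 99, 134 and 267 CPM in the pools, lowest at 12 h (log2 fold change −1.76 ± 0.34, adjusted p = 0.0115). Slco1b2, an uptake carrier of the sinusoidal membrane, fell from 1025, 887, 1205 and 1014 CPM to 209, 211, 219 and 577 CPM (adjusted p = 0.0127). Abcb11 and Slco1b2 were nearest to the mice at 72 h. Ugt2b1 lost its call without mouse 2 (adjusted p = 0.0541), and with the NULL mice as the baseline Abcb11 was not called (log2 fold change −0.50, adjusted p = 0.368). Slco1b2 (adjusted p = 0.127) and Ugt1a6a (adjusted p = 0.0822) each lost their call in 1 of 21 alternative settings.

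Some amino acid, fasting and hormone-dependent genes of the hepatocyte were held down too. Of 23 genes of the urea cycle and amino acid catabolism, 12 were called lower, 1 higher and 6 were held down. Tat, tyrosine aminotransferase, was at 2841, 6682, 4735 and 2553 CPM in the mice and 2016, 1340.0, 1596 and 1262 CPM in the pools (adjusted p = 0.0211). Pck1, the gluconeogenic enzyme that a fast induces, fell from 5063, 6901, 5175 and 4891 CPM to 1279, 1317, 2029.8 and 1703 CPM (log2 fold change −1.80 ± 0.24, adjusted p = 0.00315), and of 11 genes in its list 3 were called lower, with Pck1 and G6pc held. Cat, peroxisomal catalase, fell from 2668, 2711, 2514 and 2800.2 CPM to 1122, 707, 924 and 1196 CPM (log2 fold change −1.44 ± 0.22, adjusted p = 0.00481). Of 18 male-pattern targets of growth hormone, 10 were called lower and 6 were held down. Hsd3b5, a male-specific steroid reductase, was at 266, 235, 283 and 103 CPM in the mice and 2.96, 5.72, 8.32 and 59.3 CPM in the pools (adjusted p = 0.025), and Ces3a, a carboxylesterase, fell from 2806, 3147, 2816 and 2197 CPM to 1159, 670.5, 543 and 1202 CPM (adjusted p = 0.00941). Calls lost with 1 library left out were Tat without mouse 2 or the 24 or 48 h pool (highest adjusted p = 0.061) and Hsd3b5 without mouse 1, 2 or 3 or the 24 or 48 h pool (highest adjusted p = 0.0693). The NULL baseline ended the call of Hsd3b5 (log2 fold change −0.87, adjusted p = 0.494). In 1 of 21 alternative settings each, the calls of Ces3a (adjusted p = 0.113) and Cat (adjusted p = 0.0674) were lost.

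Some regulators of hepatocyte metabolism were also among the held-down genes. Their list counts stand beside 7.18% of all genes tested called lower and 3.72% held down. Of 14 lipogenesis genes 5 were called lower and 2 were held. Mlxipl, the glucose-sensing factor ChREBP, fell from 504, 417, 316 and 438 CPM to 144, 73.3, 114 and 134 CPM (log2 fold change −1.85 ± 0.25, adjusted p = 0.00315). Of 18 liver-enriched transcription factors 3 were called lower, and the nuclear receptor genes Nr5a2 (adjusted p = 0.00853) and Ppara (adjusted p = 0.0357) were held down. Of 18 clock genes and outputs 5 were called lower and 1 higher. Nr1d1, the clock repressor REV-ERB alpha, was at 207, 196, 204 and 239 CPM in the mice and 138, 42.7, 30.5 and 53.1 CPM in the pools (adjusted p = 0.0257), and its exons overlap those of Thra on the other strand. Tef and Usp2, outputs of the clock, were held down with it, at adjusted p of 0.0102 and 0.0123. Cbs, the first enzyme of transsulfuration, was the 1 held gene of 15 in methionine metabolism, at 693, 665, 534 and 576 CPM in the mice and 337, 299, 323 and 328 CPM in the pools (adjusted p = 0.00939), and with the NULL mice as the baseline its log2 fold change was 0.050 (adjusted p = 0.842). Lost calls with 1 library left out were Ppara without mouse 1, 2 or 4 or the 24 or 48 h pool (highest adjusted p = 0.102) and Nr1d1 without mouse 1, 2, 3 or 4 or the 24 or 48 h pool (highest adjusted p = 0.0663). The NULL baseline ended the call of Nr1d1 (log2 fold change −1.04, adjusted p = 0.132), and the calls of Tef (adjusted p = 0.188) and Usp2 (adjusted p = 0.359) were lost when the 96 h pool was added.

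**Figure D3:**
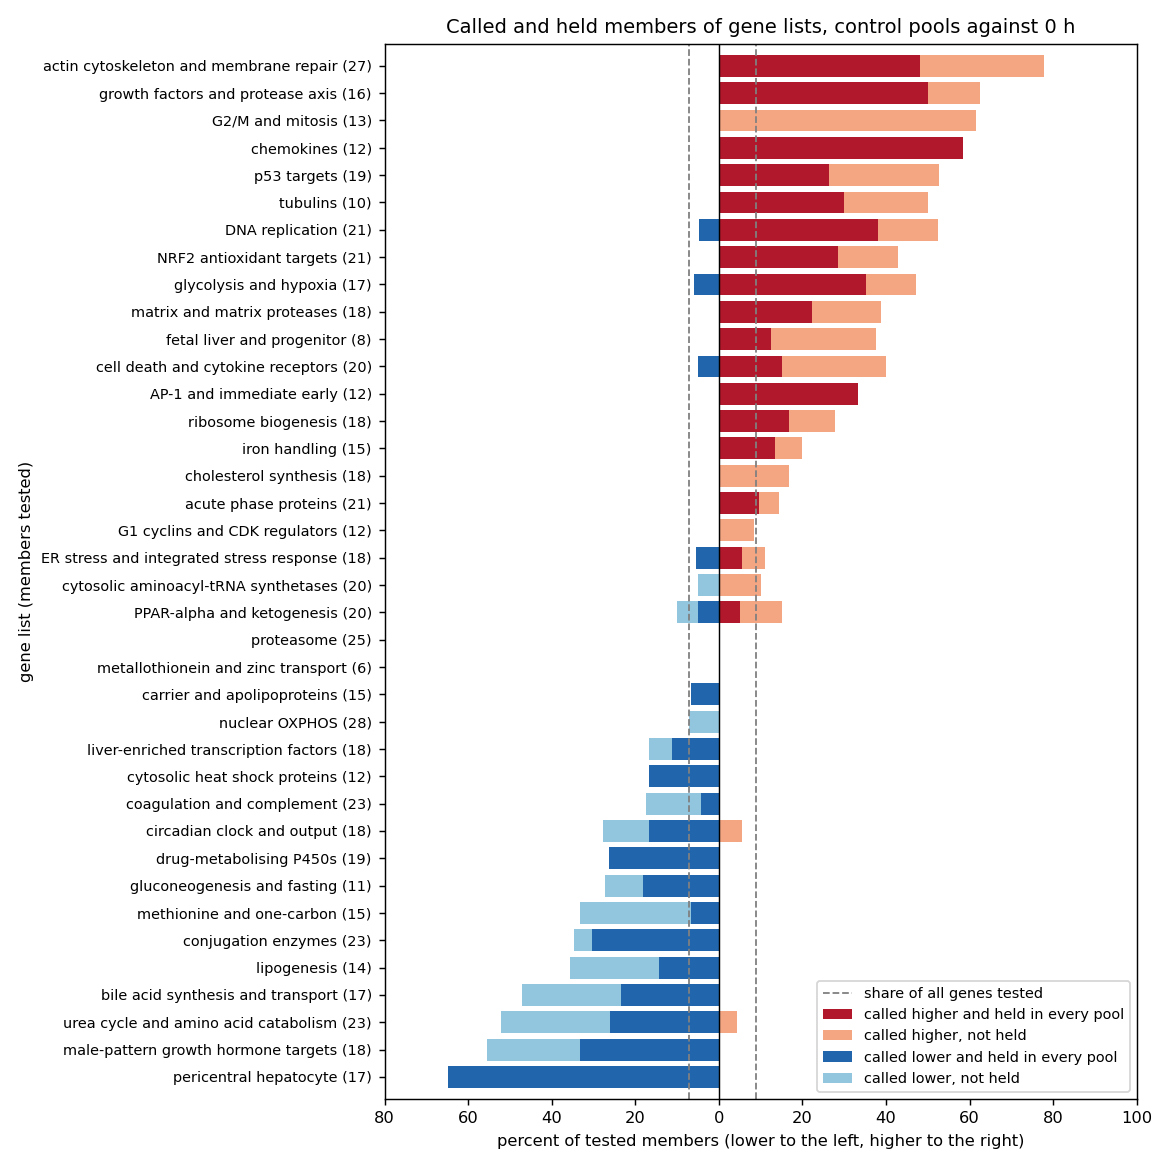
Percent of tested members called higher (to the right) or lower (to the left) in each gene list, with the number of members tested in brackets, dark for genes held in every pool and light for genes called but not held. Dashed lines mark the shares of all genes tested, 8.85% higher and 7.18% lower.

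Further lists had at most 2 held members each, and are read against the shares of all genes, 8.85% higher and 7.18% lower. None of 25 proteasome genes was called, and of 28 nuclear genes of oxidative phosphorylation 2 were called lower (Sdha and Sdhb, named after their values were seen), with none held. None of 6 genes of metallothioneins and zinc transport was called. Mt1, a zinc-binding metallothionein, was at 22.9, 652, 1520.4 and 319.9 CPM in the mice and 3666, 3391, 2173 and 1259.9 CPM in the pools (adjusted p = 0.132). Of 21 acute phase proteins 3 were called higher, and besides Lcn2 only Orm2 was held, from 6.5, 5.84, 8.69 and 7.29 CPM to 28.6, 14.9, 24.8 and 33.7 CPM (adjusted p = 0.00435). Coagulation and complement genes had 4 of 23 called lower with C6 held (adjusted p = 0.0215), and 1 of 15 carrier and apolipoprotein genes, Serpina6, was held down (adjusted p = 0.0287). Cholesterol synthesis had 3 of 18 called higher and none held. Of 12 cytosolic heat shock genes 2 were held down, Hsph1 (adjusted p = 0.0183) and Dnaja1 (adjusted p = 0.0425). Of 18 genes of the ER and integrated stress response, 2 were called higher and 1 lower. Psat1 was held up and Herpud1, a component of ER-associated degradation, was held down, from 858, 1442, 1356 and 1195 CPM to 322, 414, 361 and 602 CPM (adjusted p = 0.00798). Among 10 sinusoidal endothelial markers 1 was called higher and 2 lower, and Dnase1l3, a secreted nuclease, was held down (adjusted p = 0.00416), and among 20 aminoacyl-tRNA synthetase genes 2 were called higher, 1 lower and none was held.

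The remaining lists also had at most 2 held members each. Of 20 genes of PPAR-alpha and ketogenesis 3 were called higher and 2 lower, with Fgf21 held up and Ppara held down. Of 12 G1 cyclins and regulators 1 was called higher and none was held. Among 15 iron genes 3 were called higher, and Id1, a target of BMP signalling, was held up with Hmox1, from 8.92, 7.51, 3.01 and 13.9 CPM to 77.5, 97.3, 59.5 and 83.8 CPM (log2 fold change 3.25 ± 0.40, adjusted p = 0.00266). The pools of Id1 lay several times above every mouse. Among 8 fetal and progenitor genes 3 were called higher and Sox9, a factor of bile duct cells and reactive hepatocytes, was held up, from 4.31, 7.37, 5.18 and 5.79 CPM to 124, 28.9, 21.5 and 8.74 CPM (adjusted p = 0.0213). Sox9 was also the 1 of 5 cholangiocyte markers called. The 1 erythroid marker tested, Alas2, was held down (adjusted p = 0.0117), and neither of 2 markers of mesothelium or other tissue was called. With 1 library left out, the calls lost among the genes of this and the preceding paragraph were C6 without mouse 2 or 3 or the 24 or 48 h pool (highest adjusted p = 0.0625), Serpina6 without mouse 1, 2 or 4 or the 24 or 48 h pool (highest adjusted p = 0.0744), Hsph1 without mouse 2 or the 48 h pool (highest adjusted p = 0.0608), Dnaja1 without mouse 1, 2 or 3 or the 24 or 48 h pool (highest adjusted p = 0.123) and Sox9 without mouse 1, 2, 3 or 4 (highest adjusted p = 0.0664). With the NULL baseline they were Serpina6 (log2 fold change −1.25, adjusted p = 0.15), Dnaja1 (log2 fold change −0.52, adjusted p = 0.0975), Dnase1l3 (log2 fold change −0.36, adjusted p = 0.409) and Alas2 (log2 fold change −0.62, adjusted p = 0.205).

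Within the 12 to 72 h window, held genes differed in when they stood furthest from 0 h. The largest change of held-up genes fell at 12, 24, 48 and 72 h in 213, 132, 149 and 154 genes, and the smallest fell at 72 h in 294. Held-down genes had their largest change at 12, 24, 48 and 72 h in 136, 156, 116 and 56 genes, and their smallest at 72 h in 229. With 1 pool per time these orders have no test. The range over the 4 pools had a median of 1.17 on the log2 scale for held-up genes and 0.79 for held-down genes, beside ranges over the 4 mice of 0.82 and 0.62. Among held genes of at least 10 CPM the steadiest were Larp7, Ilf2 and Anp32b on the higher side and Aco1, Jade1 and Rhbdd3 on the lower. Jade1, a scaffold of a histone acetyltransferase, was at 49.5, 50.3, 48.9 and 48.2 CPM in the mice and 25.7, 24.7, 25.7 and 25.7 CPM in the pools (log2 fold change −0.95 ± 0.14, adjusted p = 0.0045). Aco1, the iron-responsive aconitase, was at 289, 310.0, 286 and 252 CPM in the mice and 182, 179.7, 179 and 186 CPM in the pools (adjusted p = 0.0213). The widest held-up genes were Gpnmb, which climbed to 72 h, and Hilpda and Dusp5, which declined to it. Dusp5, a phosphatase of ERK, was at 0.69, 1.46, 0.668 and 0.597 CPM in the mice and 151, 40.4, 23.2 and 2.38 CPM in the pools (adjusted p = 0.0097). The widest held-down genes were Slc1a2, Hsd3b5 and Cyp2c37. With 1 library left out, calls were lost for Aco1 without mouse 1 or 2 or the 24 or 48 h pool (highest adjusted p = 0.0732), Larp7 without mouse 1 or 2 (highest adjusted p = 0.0606), Ilf2 without mouse 1, 2, 3 or 4 or the 24 or 48 h pool (highest adjusted p = 0.131), Anp32b without mouse 1 or 2 or the 48 h pool (highest adjusted p = 0.0611) and Cyp2c37 without mouse 1, 2 or 4 or the 24 h pool (highest adjusted p = 0.0712). The steadiest genes lie near the fold limit, and other settings ended calls among them. The glmTreat test against 1.5-fold called none of the 6 (adjusted p = 0.0645 for Jade1 and higher for the others). The stranded counts lost Larp7 (log2 fold change 0.55, adjusted p = 0.0844) and Ilf2 (log2 fold change 0.61, adjusted p = 0.0527), and the 96 h pool ended the calls of Ilf2 (log2 fold change 0.54), Anp32b (0.58), Aco1 (−0.52) and Rhbdd3 (−0.87). With the NULL baseline Aco1 fell short of the fold limit (log2 fold change −0.52, adjusted p = 0.0372), as it did with library size alone (−0.51), and Ilf2 was also lost without a count filter (adjusted p = 0.0742) and without mouse 3 and the 12 h pool together (adjusted p = 0.0638).

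**Figure D4:**
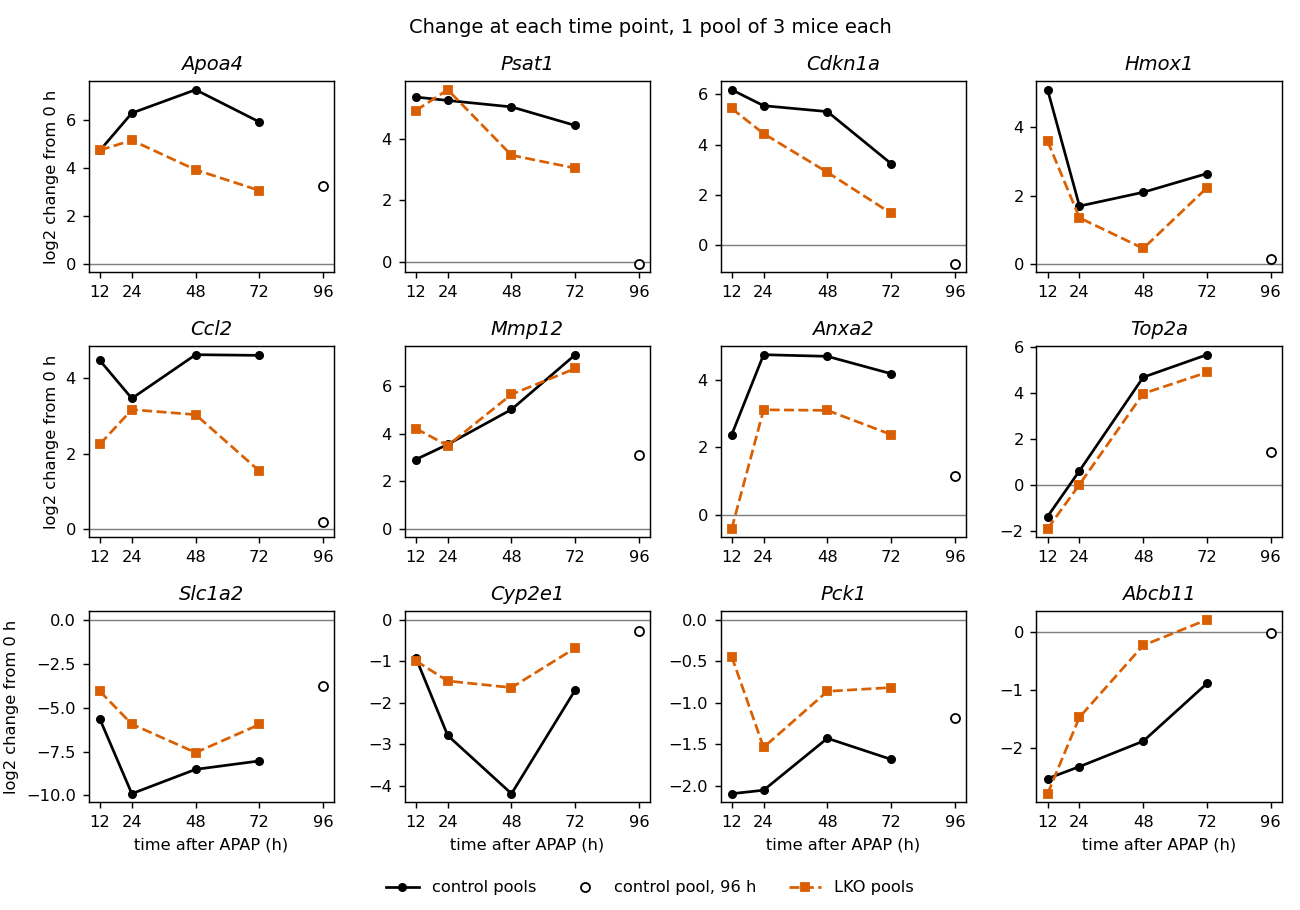
Log2 change from the mean of the genotype's own 4 mice at 0 h for 12 genes, with control pools in black, the control 96 h pool as an open circle and LKO pools in orange, each point 1 pool of 3 mice. Hmox1 and Cdkn1a are highest at 12 h, Mmp12 and Top2a at 72 h, Cyp2e1 is lowest at 48 h, and Top2a is called but not held.

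The control pool at 96 h, which the choice did not use, gave a later view of the same genes, although it shares the 4 mice at 0 h with them. The values at 96 h and those of LKO livers are on a TMM scale fitted over 17 libraries. At 96 h 267 held-up genes (41.2%) and 192 held-down genes (41.4%) lay within the range of the 4 mice at 0 h, beside 43.7% of all genes tested. Still at least 1.5-fold displaced in the same direction were 241 held-up genes (37.2%) and 150 held-down genes (32.3%), beside 15% of all genes tested that were at least 1.5-fold higher and 12.7% that were lower. Past the range of the mice on the other side were 69 held-up and 25 held-down genes. Apoa4 was at 993 CPM, a log2 change of 3.24 from the mean at 0 h, and Lcn2 at 137 CPM (log2 change 4.27). Lpin1 was at 93.3 CPM (log2 change −3.17) and Slc1a2 at 8.76 CPM (log2 change −3.79), so both remained far below 0 h. Sprr1a was at 0 CPM, Psat1 at 0.565 CPM and Cyp2e1 at 6913 CPM, all at or near the range of the mice. Orm2 was higher at 96 h than in any earlier pool, at 89 CPM. Adding the 96 h pool to the arm reduced the held genes to 155 up and 117 down and ended 71 of the 135 calls among named genes, Oat (adjusted p = 0.121), Rhbg (adjusted p = 0.149), Lgr5 (adjusted p = 0.218), Sult2a8 (adjusted p = 0.113), Ugt2b1 (adjusted p = 0.107) and Npr2 (adjusted p = 0.0554) among them.

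The same comparison in LKO livers, 4 pools of 12 to 72 h against 4 LKO mice at 0 h, called 13 genes higher (0.103% of 12674 tested) and 8 lower (0.0631%), and all 21 met the rule for held genes. Of these, 12 of the 13 (92.3%) and 6 of the 8 (75%) were also held in controls, where they made up 1.85% and 1.29% of the held genes. Those held up in both were Apoa4, Cd68, Cd93, Chil3, F13a1, Lilr4b, Ly6d, Mmp12, Pkm, Psat1, Slc7a11 and Vcan. Those held down in both were Car11, Col27a1, Mapk15, Npr2, Slc1a2 and Syt3. Genes of controls held up had a median log2 fold change of 0.89 in LKO livers and those held down −0.63, beside 1.84 and −1.25 in the controls on which they were chosen. The difference between the genotypes, (LKO pools minus LKO mice) minus (control pools minus control mice), was tested on 13270 genes. None was called by edgeR (0%), 630 had an unadjusted p under 0.05, and DESeq2 called 3, Cyp2c40, Cyp2c69 and Anxa5. With mice blocked by number and pools by time, edgeR also called 3 genes, Cyp2c40 (difference 5.30, adjusted p = 0.00051), Cyp2c69 (5.71, adjusted p = 0.0304) and Anxa5 (−1.46, adjusted p = 0.0337), so the call of these genes depends on the fit. Same-numbered control and LKO mice did not deviate together (r from −0.348 to 0.195), so that block has no basis at 0 h. The smallest p among held genes belonged to Anxa5, Cyp2c40, Tpm4, Hes1 and Map4k4. Anxa5 had a log2 fold change of 1.69 ± 0.18 in controls and 0.24 in LKO livers, a difference of −1.46 ± 0.23 (SE, adjusted p = 0.15). Hes1, a repressor downstream of Notch, was at 9.03, 6.81, 6.35 and 10.2 CPM in control mice and 24, 26.7, 23.4 and 28.1 CPM in control pools, and its LKO log2 fold change was −0.14 (difference −1.80 ± 0.42, adjusted p = 0.942).

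**Figure D5:**
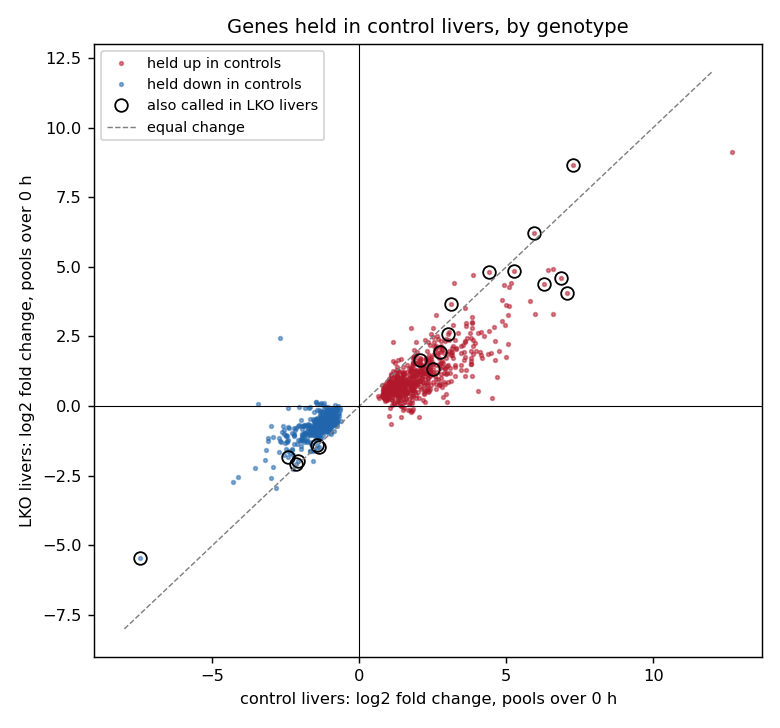
Log2 fold change of the pools over 0 h in LKO livers against control livers for genes held in controls, red for held up and blue for held down, with circles for the 18 genes also called in LKO livers and the dashed line for equal change. Medians were 1.84 in controls and 0.89 in LKO livers for held-up genes, on values that chose the genes in controls only.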

How the data were processed

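Liver RNA was sequenced as unstranded polyA libraries. Per the labels and the study's methods, the authors used Trimmomatic for trimming and STAR for alignment to mm10, and deposited raw read counts per gene, which STAR takes from uniquely mapped reads. The annotation they used is not given in the sources used here. From the unstranded counts, with the rows on unmapped, multimapping, featureless and ambiguous reads dropped, the 8 control libraries were filtered with filterByExpr, scaled with TMM and tested with edgeR 4.0.16 (R 4.3.3), quasi-likelihood F-test, Benjamini-Hochberg adjustment over 12481 of 24411 genes. Log2 CPM for single pools used a prior count of 2. Each SE is the size of the log2 fold change divided by the root of its F statistic, so it was derived from the test and not estimated separately. LKO livers were tested alone and against controls in the same way, and the LKO and 96 h levels were scaled over 17 libraries. DESeq2 1.42.0 and other filters, scalings, baselines and left-out libraries were alternatives. Scripts were tested on simulated data. Members and gene lists were chosen with earlier results of these data known. Named genes, leaving out a few not reported here, were the 12 most displaced held-up and 11 most displaced held-down genes, the 6 most abundant, 3 steadiest and 3 widest held genes in each direction, up to 4 held members per list (where none was held, the 2 most abundant), the markers, and the 5 genes with the smallest p for the genotype difference. Called but unheld genes outside this rule, and list members and shared genes given by name alone, were named after their values were seen. Coordinates came from GENCODE vM21, in which 96.6% of tested symbols matched, and promoters from RefSeq, found for 9561 tested genes. Pools may carry technical as well as animal spread, and intervals and limits for counts of 0 cover counting error only.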

Additional observations from a re-analysis of the deposited data

Results flagged for a closer look

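In 16 of the 183 named genes, 1 control mouse at 0 h lay far from the other 3, by Dixon's test at the 95% level, which chance gives in about 1 of 20 groups. Among held-up genes, the mouse apart was at 0.115 CPM for Ccl7, 5.08 CPM for Cdt1, 1.46 CPM for Dusp5, 13.4 CPM for Pkm, 3.46 CPM for S100a9 and 0.0597 CPM for Slc7a11. Among held-down genes it was at 6901 CPM for Pck1, 7.17 CPM for Slc22a28 and 8.69 CPM for Cyp2c40. Among other named genes it was at 9.91 CPM for Col1a1, 4.42 CPM for Csf3r, 34.9 CPM for Lyz2, 1.97 CPM for S100a8, 39.9 CPM for Stab1, 6.18 CPM for Timd4 and 0.487 CPM for Top2a. The counts behind Ccl7 and Slc7a11 were 2 and 1 in all 4 mice.

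For 2 named genes every LKO pool moved one way from LKO mice at 0 h and every control pool the opposite way. The log2 change in LKO minus that in controls was 5.12 for Cyp2c40 (edgeR adjusted p = 0.58) and 0.46 for Eprs, a tRNA synthetase gene (adjusted p = 0.942), so edgeR without a block called neither. Cyp2c40 was called by DESeq2 (adjusted p = 0.000325) and by edgeR with the replicate block (adjusted p = 0.00051), in which the mouse numbers do not pair the genotypes. Its control levels were low, at 2.24, 8.69, 2.26 and 2.45 CPM in the mice and 0.329, 0.059, 1.36 and 0.596 CPM in the pools. The control call of Cyp2c40 was lost without mouse 1, 2, 3 or 4 or the 24 h pool (highest adjusted p = 0.13).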

How the results depend on the processing

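The 2001 calls of the control comparison stayed within 1.5 times that count, and the held counts too, with DESeq2 (2858 calls), RLE scaling, library size alone, both count filters, no fold limit, the stranded count column (1751) and the joint fit with LKO (2679). The time term within the pools gave 3146 calls (1723 higher, 1423 lower). A test against 1.5-fold (glmTreat) gave 445 (312 higher, 133 lower), with 294 held up and 131 down. With the 96 h pool added, 509 were called (298 higher, 211 lower) and 155 and 117 were held. Asking for 2-fold in every pool held 337 and 141, and no fold limit per pool held 819 down. With the NULL mice as the baseline 902 were held down, 294 of them among the 464, and signs turned for Cbs (0.050), Fgf21 (−0.48) and Oit3 (0.056). Leaving out mouse 3 and the 12 h pool together, chosen after seeing the data for their mapping, held 1074 up and 885 down. With each library left out, calls ranged from 609 to 2969 (339 to 1631 higher, 270 to 1338 lower), held-up genes from 330 to 1163 and held-down genes from 265 to 889. The cause was not tested, although 1 sample or pool fewer changes both the power and the rule itself. Of 135 named genes called, 48 kept their call in every setting. The genotype difference, with 0 calls, gave 3 with DESeq2 and 3 with the replicate block (Cyp2c40, Cyp2c69 and Anxa5 both times), and 0 elsewhere. Same-numbered control and LKO mice did not deviate together (r from −0.348 to 0.195), so the numbers do not pair them, whereas the control and LKO pools of the same time did (r from 0.251 to 0.667). No paired analysis was possible for the control comparison because the pools carry no replicate numbers shared with the mice. With 1 pool a time point, changes between times have no error.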
